A study of Homo sapiens with 6 samples.

Results

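Glycolysis splits glucose into pyruvate in a chain of cytosolic enzymes. Glucose enters through SLC2A (GLUT) carriers and is trapped by hexokinases. Pyruvate is then reduced to lactate and exported, or imported into mitochondria, where the pyruvate dehydrogenase complex, restrained by its kinases and released by its phosphatases, converts it to acetyl-CoA. Most steps have several isozymes with different kinetics and tissue ranges, and many of their genes are known targets of hypoxia-inducible factor and MYC. The genes described here are 39 members chosen by name as steps of glucose entry, glycolysis and pyruvate fate. All 39 symbols matched a single identifier among the 60616 in the files.

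The values come from 12Z cells, an immortalized human endometriotic cell line of wild-type genotype, used to model endometriosis. In the treated group, 3 libraries came from cells given frankincense extract, a preparation of Boswellia resin, at 70 ug/mL in DMSO for 12 h. In the vehicle group, 3 libraries came from cells given DMSO. Both groups were kept in DMEM/F12 with charcoal-stripped fetal serum, and both are this single line. The labels do not say whether replicates were separate cultures. The p-values therefore describe the variation among these 6 libraries alone, and it may be technical.

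The libraries held 22615150 to 27615196 expected counts, and 3 counts in a library equalled 0.109 to 0.133 CPM (counts scaled to library size), which takes in only counting error. Keratin mRNAs were present, with KRT8 at 771 TPM and KRT18 at 661 TPM in vehicle cells. CDH1, the epithelial cadherin, was at only 0.133 TPM and EPCAM at 1.12 TPM. Of 5 epithelial markers tested, KRT8, KRT18 and KRT19 were called lower in the count test, and the scarcer KRT7 and EPCAM higher. On the TPM scale 3 were also lower and 2 higher. The stromal markers VIM and COL1A1 stood at 2048 and 1444 TPM. Summed TPM of the 6 stromal markers went from a range of 4240 to 4343 in vehicle to 2850 to 3028 in treated libraries. All 6 were called lower in the count test and 5 on the TPM scale. The 3 endothelial markers summed to 0.27 TPM or less and CDH5 was at 0, and CD3E was at 0 among 4 immune markers. The immune list summed to 2.23 to 3.33 TPM in vehicle and 0.35 to 0.73 in treated libraries, most of it CD14, a monocyte marker, which was 7.76-fold lower (edgeR adjusted p = 3.9e-07). All 3 smooth muscle markers were called lower in the count test and none on the TPM scale, where they summed to 37.5 to 38.9 and 36.8 to 39.1. mRNAs of the mitochondrial genome made up 13.1% to 13.8% of counts in vehicle and 4.67% to 5.43% in treated libraries. The part of these shifts in the results below was not tested. In such bulk samples, fewer cells of a type and less RNA per cell cannot be told apart.

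Frankincense-treated cells had less mRNA for nearly every enzyme from aldolase to lactate dehydrogenase A, and more mRNA for the hexokinases HK1, HK2 and HKDC1. Of the 39 members, 38 passed the filter on low counts and 31 were called at an adjusted p under 0.05 (edgeR quasi-likelihood fit, adjusted over 16719 genes), against 62.9% of all tested genes. Of these members 24 were lower and 7 higher, where 31.0% of all tested genes were lower and 31.9% higher. The members' median log2 change was -0.34 against -0.0016 for all tested genes. Normalised counts of the groups did not overlap for 31 of the 38 members, against 67.5% of all tested genes. At least 2-fold changes were called lower in 5 members and higher in 2, against 7.11% and 5.14% of all genes.

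The split depends on the scale of measurement. On the log2(TPM + 1) scale, which raised the median of all tested genes by 0.20, 15 members were lower and 12 higher, where 14.8% of all tested genes were lower and 43.8% higher. With TPM rescaled without mitochondrial genes, 19 were lower and 7 higher, where 22.5% of all genes were lower and 30.8% higher. Changes below are relative to the count scaling (TMM), and the 15 members lower on both scales were SLC2A12, PFKFB3, PFKFB4, ALDOA, ALDOC, TPI1, GAPDH, PGK1, PGAM1, ENO2, PKM, LDHA, SLC16A3, PDK2 and PDK3. The same 7 members were higher on both. LDHB, PDHA1, PFKM, PFKP and SLC16A1 were called higher on log2(TPM + 1) but not in the count test. None of these was called with TPM rescaled without mitochondrial genes. The members' summed TPM went from 1.31% to 1.37% of the total in vehicle libraries to 1.10% to 1.14% in treated ones.

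**Figure D1:**
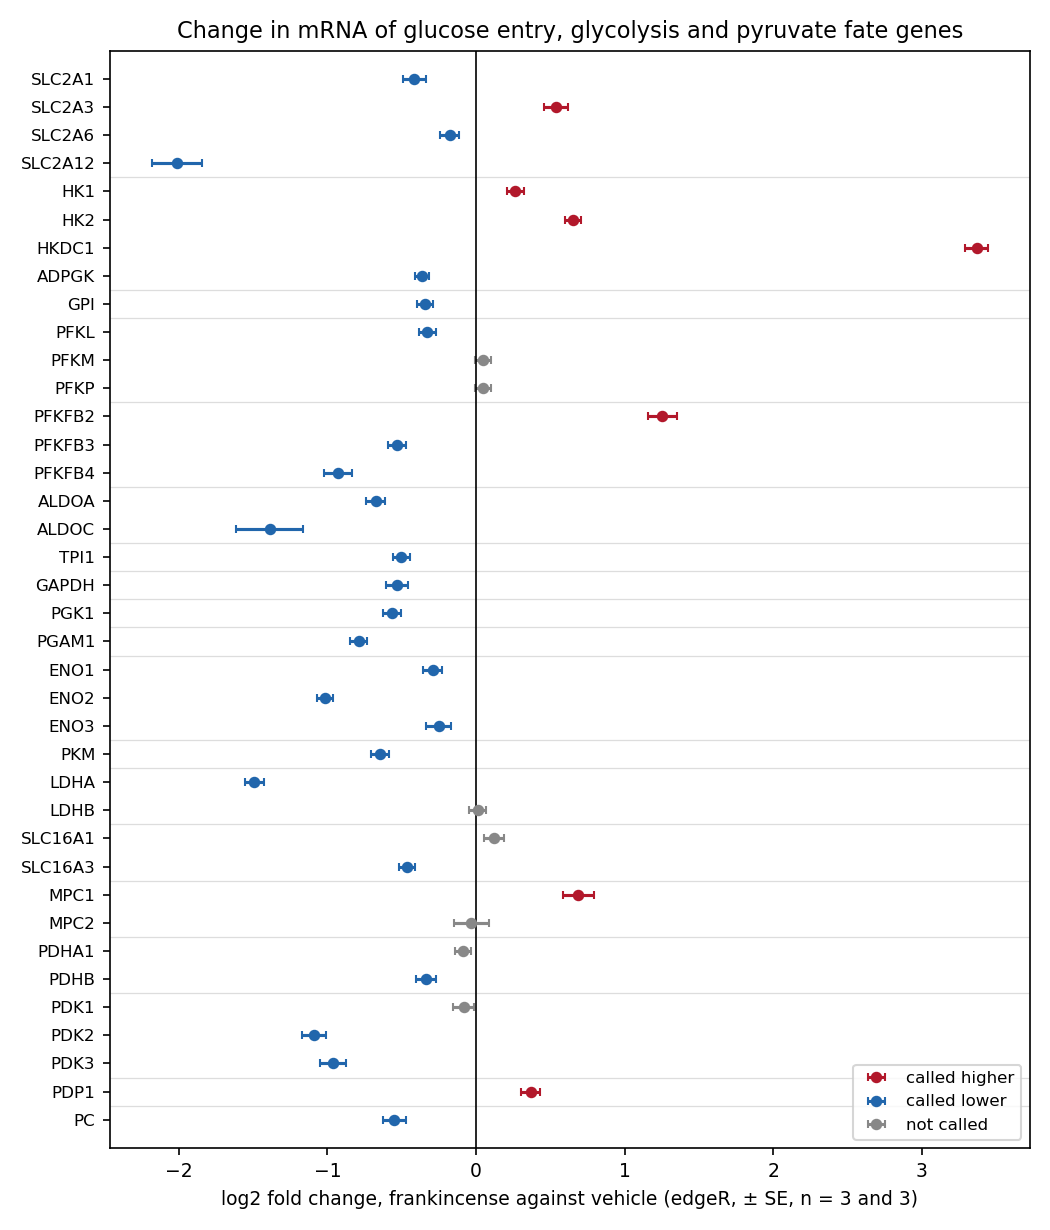
log2 fold change of each of the 38 tested members (points) with its SE (bars), from edgeR on 3 frankincense and 3 vehicle libraries, in pathway order with lines between steps. The genes from TPI1 to PKM lie left of 0, HKDC1 lies far to the right at 3.37, and LDHA lies at -1.49.

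Promoter sequence is shown for 4 members whose mRNA moved in opposite directions. Windows are the 250 bases before a RefSeq transcript start (GRCh38.p14), all on the plus strand, and where a gene has several starts the first listed is given. HKDC1 is chr10:69220082-69220331, HK2 is chr2:74833877-74834126, LDHA is chr11:18394313-18394562 and ENO2 is chr12:6914330-6914579. Capitals mark letters of the motifs searched on both strands: the hypoxia response cores ACGTG and GCGTG, the E-box CACGTG (which contains ACGTG), the ATF4 composite element TGATGNAA, and the antioxidant core TGACNNNGC. The longer endoplasmic reticulum stress and heat shock elements were searched too and had no match in any member.
HKDC1: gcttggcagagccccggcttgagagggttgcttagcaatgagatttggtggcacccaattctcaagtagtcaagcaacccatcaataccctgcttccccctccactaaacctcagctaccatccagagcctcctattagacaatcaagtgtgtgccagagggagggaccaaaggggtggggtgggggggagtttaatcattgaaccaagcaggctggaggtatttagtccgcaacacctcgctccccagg
HK2: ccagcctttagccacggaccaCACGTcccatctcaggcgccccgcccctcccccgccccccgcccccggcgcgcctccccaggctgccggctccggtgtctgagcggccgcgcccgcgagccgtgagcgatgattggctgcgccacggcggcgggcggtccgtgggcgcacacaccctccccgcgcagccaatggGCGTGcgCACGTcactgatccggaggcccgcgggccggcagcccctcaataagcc
LDHA: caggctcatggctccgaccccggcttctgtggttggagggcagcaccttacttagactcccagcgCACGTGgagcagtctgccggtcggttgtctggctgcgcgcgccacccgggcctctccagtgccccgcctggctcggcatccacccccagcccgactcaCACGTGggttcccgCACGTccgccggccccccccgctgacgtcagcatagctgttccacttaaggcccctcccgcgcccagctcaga
ENO2: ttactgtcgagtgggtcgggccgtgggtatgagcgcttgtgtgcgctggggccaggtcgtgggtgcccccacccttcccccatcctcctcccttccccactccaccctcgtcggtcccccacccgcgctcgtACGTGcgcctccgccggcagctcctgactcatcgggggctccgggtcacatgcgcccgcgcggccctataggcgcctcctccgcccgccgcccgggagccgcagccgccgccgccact

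The LDHA window held the E-box letters at 2 places, 185 to 180 and 87 to 82 bases before the start, and ACGTG once more at 73 to 69. ENO2 held ACGTG once, at 118 to 114. The printed HK2 window held ACGTG at 229 to 225 and at 48 to 44, and GCGTG at 55 to 51. Another HK2 window, not printed, held the E-box letters at 194 to 189 and at 149 to 144, so that HK2, like LDHA, has 2 such matches, and GCGTG at 2 places. HKDC1 held none of the letters searched, which says only that they are not in this window. ACGTG was found in at least 1 window of 14 of the 24 called-lower members. It was found for 1 of the 4 called-higher members with a window used, and for 21.7% of 27305 genes. Of the 6 not-called members with a window, 3 held it (PDK1, PFKM and PFKP), so it was not confined to members that changed. Windows on chromosome 8, which holds PDP1, were left out for members but kept for all genes. GCGTG was found in 15 of the 24 and in 3 of the 4 (HK1, HK2 and MPC1), against 36.2% of genes, and the E-box in 7 of the 24 and in 1 of the 4, against 7.73%. The antioxidant core was found in 5 and 2, against 13.2%, and the ATF4 element in 0 and 1 (HK1), against 3.89%. Of the 6 not-called members, 2 held GCGTG and 0 held the E-box, the antioxidant core or the ATF4 element. A match is a description of letters, and genes differ in their number of windows and in base composition.

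Glucose carriers moved apart. SLC2A1 (GLUT1), the widespread basal carrier, stood at 75.6, 78.4 and 79.2 normalised CPM in vehicle and at 51.7, 56.5 and 66.8 in treated libraries, a log2 change of -0.42 ± 0.079 (SE; edgeR adjusted p = 0.00056). The groups did not overlap in CPM, but on the TPM scale the change was -0.097 and not called. SLC2A3 (GLUT3), a high-affinity carrier, rose from 91.8, 93.2 and 102 to 128, 132 and 159.2 normalised CPM, 1.45-fold. Its near-identical neighbour SLC2A14 went the other way, from a mean of 1.13 to 0.163 CPM, and the sum of both was 97.0 ± 5.92 and 140 ± 17.2 (SD, n = 3). Reads could be split between these copies, but the sum gave a log2 ratio of 0.53, close to the fitted 0.54 of SLC2A3.

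SLC2A12 (GLUT12), a minor carrier, was lowest of the 4 in TPM and fell most, from 8.27, 7.09 and 6.83 to 1.96, 2.21 and 1.31 normalised CPM, 4.04-fold lower (adjusted p = 1.2e-07, edgeR). TBPL1 lies on the opposite strand over part of this locus. Reads from any exons that the genes share could not be told apart, since no source says that the library kept strand. Only whole gene spans were compared, not exons. The same holds for PFKM (SENP1), PFKFB2 (YOD1), MPC2 (DCAF6) and PDK2 (SAMD14). SLC2A6 (GLUT6), a carrier of intracellular membranes, was at -0.18 ± 0.062, with its sign turned to 0.087 on the TPM scale. The SLC2A6 call was lost when vehicle replicate 2, frankincense replicate 1 or frankincense replicate 2 was left out. In TPM, which is per length, SLC2A3 supplied 43.4% ± 0.33 of the summed mRNA of the 4 carriers in vehicle and 55.2% ± 1.61 in treated libraries (SD, n = 3), while SLC2A1 supplied 37.1% ± 0.61 and 28.6% ± 2.17.

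The 3 ATP-dependent hexokinase genes rose, and the largest rise of any member was that of HKDC1, a hexokinase-domain gene of low activity toward glucose. HKDC1 (ENSG00000156510, GRCh38 chromosome 10, 69220303 to 69267559) stood at 5.51, 5.45 and 5.47 normalised CPM in vehicle and at 60.3, 54.4 and 55.2 in treated libraries. The treated values were far above the vehicle values, with little spread of CPM in either group. HKDC1 had 408 counts in all over the vehicle libraries, and its vehicle TPM spread more, at 3.27, 2.74 and 2.57. It was 10.3-fold higher, with a log2 change of 3.37 ± 0.076 (SE; edgeR adjusted p = 2.6e-13), and was 7th in order of p among all tested genes. HKDC1 lies 2424 bases upstream of HK1 on the same strand.

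HK2, the inducible hexokinase bound to mitochondria, rose from 80.6, 88.1 and 87.7 to 133, 135 and 135 normalised CPM, 1.57-fold (adjusted p = 5.2e-08, edgeR). HK1, the constitutive hexokinase next to HKDC1, went from 158, 160 and 169 to 188, 195 and 202, a smaller log2 change of 0.26 ± 0.055. ADPGK, which phosphorylates glucose with ADP in place of ATP, went the other way, from 112, 111 and 117 to 87.6, 86.8 and 90.2 (log2 change of -0.36 ± 0.048), and at -0.076 was not called on the TPM scale.

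In TPM, HKDC1 was the rarest of the 4 in vehicle cells, at 2.86 ± 0.37 (SD, n = 3), below HK2 at 19.7 ± 0.90, HK1 at 57.3 ± 2.63 and ADPGK at 66.3 ± 3.48. After treatment HKDC1, at 36.2 ± 1.22, did not differ from HK2, at 36.7 ± 2.15, beyond their spread. Its share of the family rose from 1.96% ± 0.29 to 16.8% ± 1.19, and that of ADPGK went from 45.4% ± 0.83 to 29.1% ± 0.57. HK1 became the most abundant, at 80.7 ± 6.54 TPM. The log2 ratio of HKDC1 to HK1 within a library moved by 3.18 ± 0.15 (SE), that of HKDC1 to HK2 by 2.77 ± 0.15 and that of HK2 to HK1 by 0.41 ± 0.038.

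Such within-library ratios were tested for 18 isozyme or subunit pairs. In 16 of the 18 the groups did not overlap, and each of these gave p = 0.1 in a two-sided exact permutation test, the smallest p that 3 against 3 libraries allow (0.113 after Benjamini-Hochberg adjustment). These ratios do not depend on how libraries are scaled to each other. The exceptions were ENO3 to ENO1 and PDK3 to PDK2. TPM of single genes did not overlap for 65.2% of all tested genes, and the share among other gene pairs was not computed. Some genes enter several pairs.

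**Figure D2:**
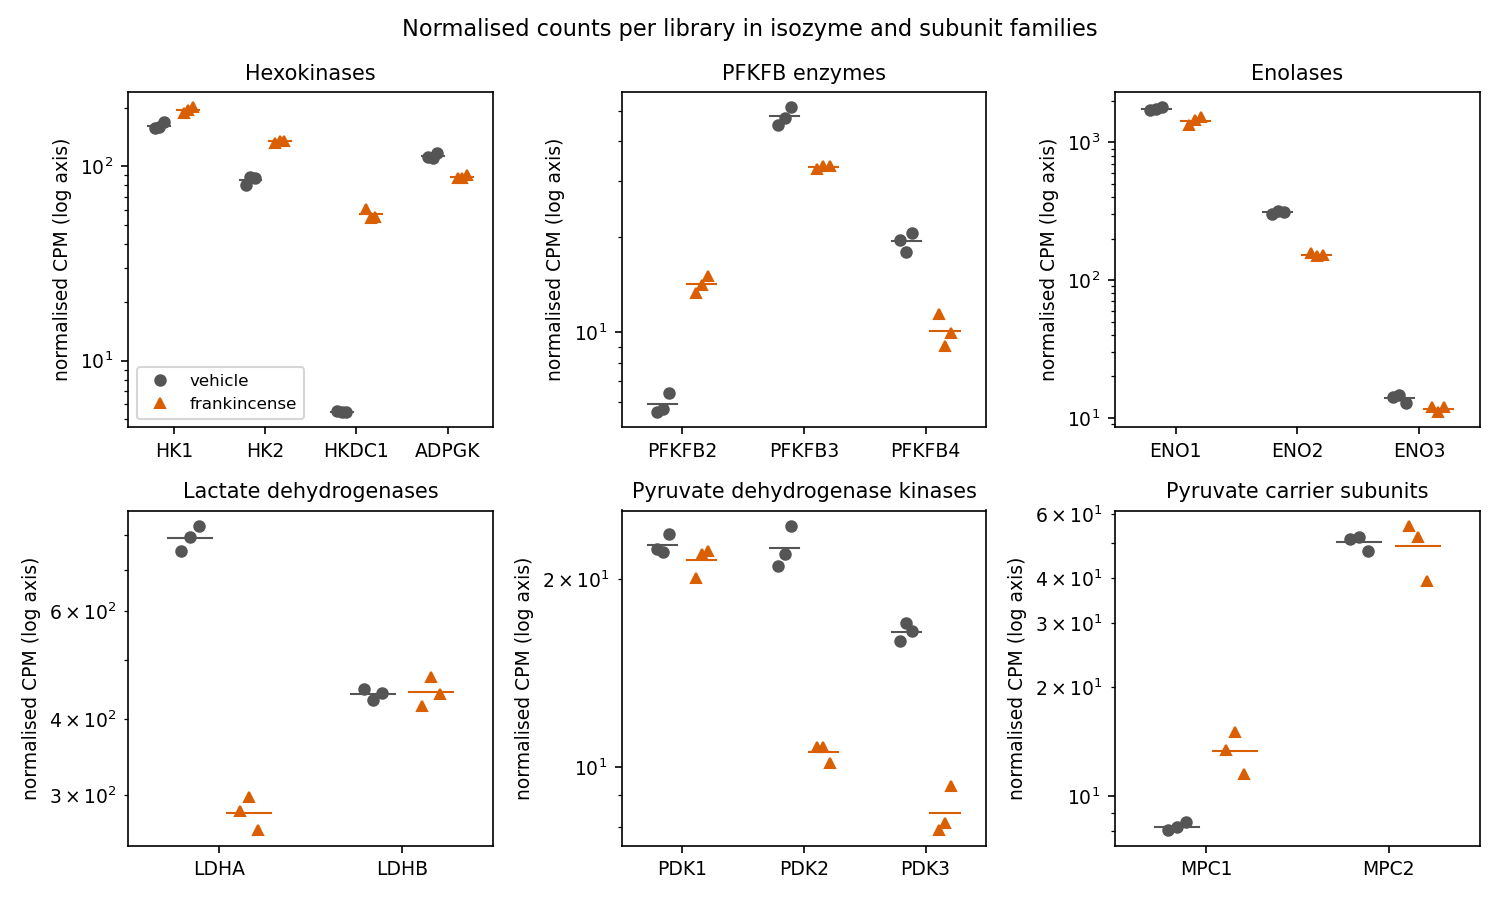
Normalised CPM on a log axis for each library (circles, vehicle; triangles, frankincense; lines, means of 3) in 6 families. HKDC1 moves from about the 5.48 mean of vehicle to 56.6, LDHA drops while LDHB stays within its spread, and PDK2 and PDK3 drop while PDK1 overlaps.

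GPI and PFKL were lower in the count test but not on the TPM scale. GPI, glucose-6-phosphate isomerase, went from 370, 379 and 384 to 294, 306 and 292 normalised CPM (log2 change of -0.35 ± 0.054), but its TPM was 206 ± 4.27 and 215 ± 10.6, so that its direction turned on the TPM scale. Of the phosphofructokinase-1 subunits, the tetramer of which commits sugar to glycolysis, only PFKL, the liver type, was called, at -0.33 ± 0.058, and it was not called at -0.068 on the TPM scale. PFKL went from 179, 188 and 177 to 137, 142 and 155 normalised CPM. PFKM, the muscle type, overlapped, at 86.4, 83.1 and 82.0 against 83.3, 83.7 and 92.7. PFKP, the platelet type, overlapped too, at 160.2, 166 and 160 against 160.2, 167 and 176. Both had a log2 change of 0.046, with 95% intervals of -0.062 to 0.15 and -0.060 to 0.15. Both were called higher on the TPM scale, at 0.28 and 0.24, but neither with TPM rescaled without mitochondrial genes. PFKP and PFKL had similar vehicle levels, at 86.4 ± 1.38 and 92.7 ± 7.54 TPM, and PFKM was lower at 43.9 ± 0.61.

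The PFKFB enzymes make and break fructose 2,6-bisphosphate, the allosteric activator of phosphofructokinase-1, and their genes split. PFKFB2, the cardiac form, rose from 5.60, 5.71 and 6.44 to 13.3, 14.1 and 15.1 normalised CPM, 2.39-fold (adjusted p = 4.1e-08, edgeR). PFKFB3, an inducible form with strong kinase activity, fell from 45.2, 47.5 and 51.2 to 32.7, 33.4 and 33.5, and PFKFB4, another hypoxia-inducible form, from 19.5, 17.9 and 20.6 to 11.4, 9.04 and 9.93. The groups did not overlap for any of the 3. The log2 changes of PFKFB3 and PFKFB4 were -0.53 ± 0.062 and -0.93 ± 0.095. PFKFB3 remained the most abundant in TPM, with 60.4% ± 1.79 of the family in vehicle and 57.7% ± 2.77 in treated libraries, while PFKFB2 went from 5.15% ± 0.18 to 17.4% ± 0.43. TIGAR, a phosphatase acting on the same effector, rose 2.57-fold.

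The genes from aldolase to pyruvate kinase were lower in the count test for all 10 of their members, and 8 of them were also lower on the TPM scale, ENO1 and ENO3 being the exceptions. ALDOA, the main aldolase, went from 1166, 1245 and 1225 to 754, 805 and 717 normalised CPM, a log2 change of -0.68 ± 0.062. ALDOC, the brain aldolase, was scarce at 2.67 ± 0.34 TPM against 1336 ± 30.0 for ALDOA, and fell 2.62-fold, from 2.35, 2.65 and 2.89 to 0.901, 1.33 and 0.779 normalised CPM. TPI1, which interconverts the triose phosphates, went from 825, 847 and 854 to 572, 623 and 587.

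GAPDH, the oxidizing step and a common reference gene, was the most abundant member, at 5401 ± 126 TPM in vehicle and 4404 ± 229 in treated libraries. Its normalised CPM went from 4631, 4850 and 4898 to 3454, 3516 and 2973, 1.45-fold lower (log2 change of -0.53 ± 0.072; edgeR adjusted p = 1.4e-05). PGK1, an ATP-forming kinase, went from 367, 385 and 395 to 242, 260 and 272, and PGAM1, the mutase after it, from 347, 357 and 362 to 199, 214 and 202. PGAM1, at -0.79 ± 0.055, fell the most of the single-gene steps. GAPDH, PGK1, PGAM1 and several others have processed pseudogenes, between which reads can be divided.

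Enolase genes were unequal. ENO2, the neuron-type enolase, fell from 303, 317 and 310 to 158, 150 and 151 normalised CPM, 2.02-fold lower (adjusted p = 9.0e-10, edgeR). ENO1, the ubiquitous form, went from 1729, 1747 and 1800 to 1340, 1450 and 1518, a log2 change of -0.29 ± 0.063 that was not called on the TPM scale. The log2 ratio of ENO2 to ENO1 moved by -0.74 ± 0.069 (SE), and the share of ENO2 in the family from 12.7% ± 0.24 to 7.996% ± 0.58. ENO3, the muscle form, went from 14.1, 14.7 and 12.8 to 12.0, 11.04 and 11.9 normalised CPM, or -0.25 ± 0.086, with its sign turned to 0.043 on the TPM scale, and its call was lost when vehicle replicate 1, vehicle replicate 2 or frankincense replicate 2 was left out. The gene PFN1 lies on the opposite strand at this locus. PKM, which makes pyruvate, went from 1780, 1809 and 1864 to 1115, 1172 and 1194 normalised CPM, 1.57-fold lower; its M1 and M2 isoforms are not separate in gene-level values.

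LDHA, the subunit that favours lactate formation, fell the most of the abundant members. LDHA (ENSG00000134333, chromosome 11, 18394388 to 18408425) went from 753, 793 and 827 to 283, 298 and 263 normalised CPM, 2.81-fold lower, with a log2 change of -1.49 ± 0.064 (SE; edgeR adjusted p = 1.1e-10). LDHB, the subunit that favours pyruvate formation, stood at 448, 429 and 441 in vehicle and at 420, 468 and 439 in treated libraries, which overlap, with a 95% interval of -0.10 to 0.13 for its log2 change. On the TPM scale LDHB was called higher at 0.26, but it was not called with TPM rescaled without mitochondrial genes. LDHA supplied 56.1% ± 1.598 of the summed LDH mRNA in vehicle and 31.0% ± 1.09 in treated libraries, and the log2 ratio of LDHB to LDHA moved by 1.51 ± 0.069, from below 0 in all vehicle libraries to above 0 in all treated ones.

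Lactate leaves the cell through monocarboxylate carriers. SLC16A3 (MCT4), the exporter of glycolytic cells, went from 286, 290 and 278 to 202, 206 and 212 normalised CPM (log2 change of -0.46 ± 0.053). SLC16A1 (MCT1), which carries lactate both ways, was at 0.12 ± 0.067 with overlapping groups. It was called higher at 0.35 on the TPM scale, but not with TPM rescaled without mitochondrial genes. CSNK1D and SLC16A1-AS1 lie on the opposite strands of these loci. BSG, the chaperone of both carriers, was lower at -0.39 ± 0.055.

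**Figure D3:**
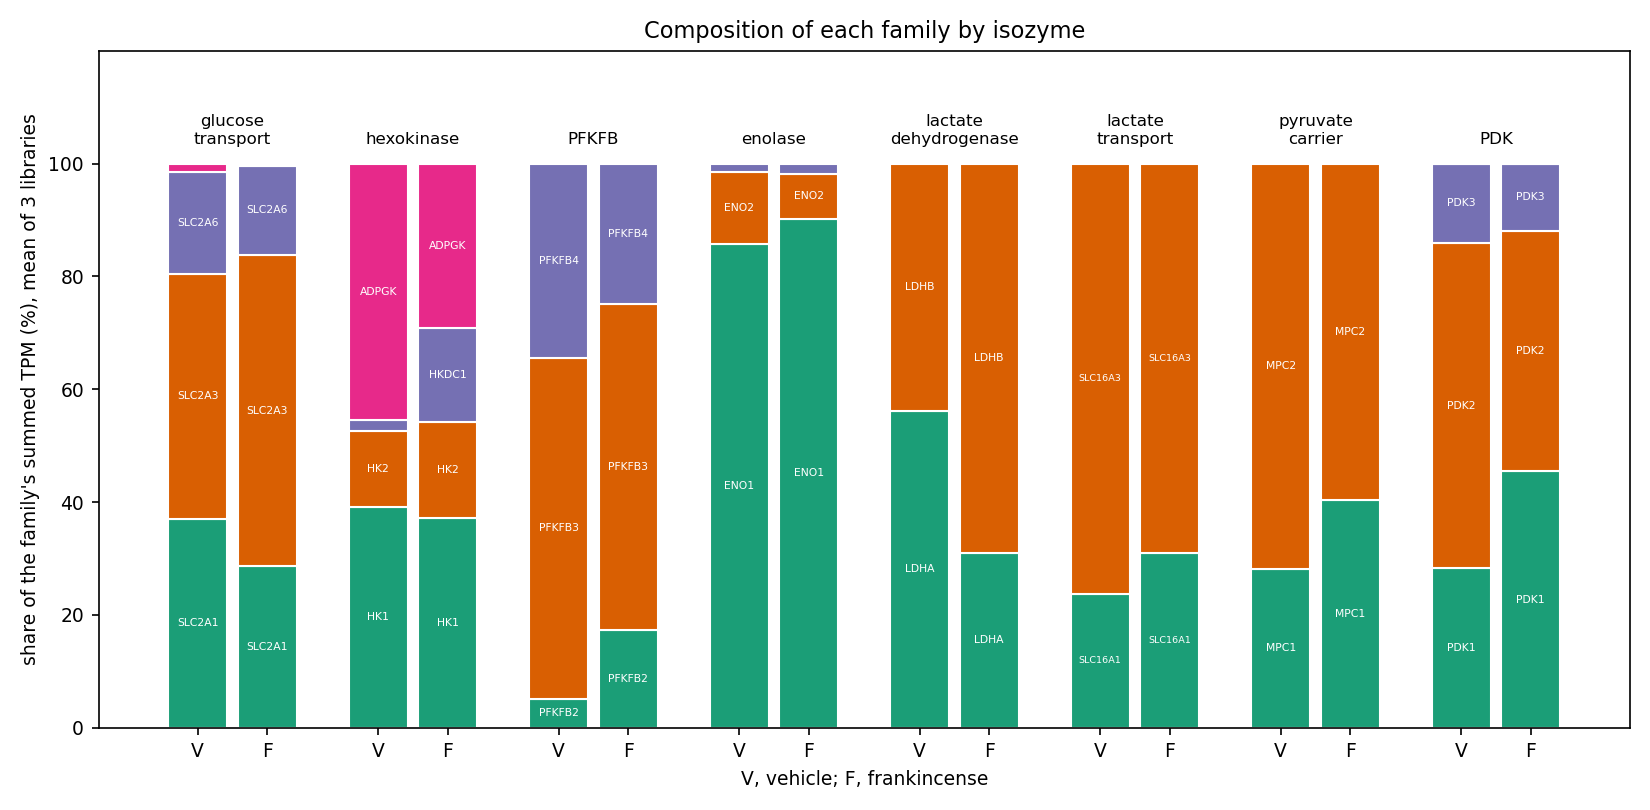
Stacked bars of each isozyme's share (percent) of its family's summed TPM, mean of 3 vehicle (V) or 3 frankincense (F) libraries. HKDC1 grows from 1.96% to 16.8% of the hexokinase genes, LDHA shrinks from 56.1% to 31.0% of LDH, and PDK1 grows from 28.2% to 45.5% of PDK.

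Genes of pyruvate entry and oxidation went in several directions. MPC1, a subunit of the mitochondrial pyruvate carrier, rose from 8.04, 8.21 and 8.47 to 13.4, 15.0 and 11.5 normalised CPM, 1.61-fold (adjusted p = 4.0e-05, edgeR). Its partner MPC2 overlapped, at 51.1, 51.7 and 47.5 against 55.7, 51.9 and 39.2, with frankincense replicate 3 lowest. The sign of the MPC2 change turned from -0.033 to 0.11 without that library. PDHA1 and PDHB, the E1 subunits of pyruvate dehydrogenase, were at -0.088 ± 0.052 and -0.34 ± 0.064, and only PDHB was called. On the TPM scale PDHB was not called, at -0.096, and PDHA1 was called higher at 0.15. With TPM rescaled without mitochondrial genes, PDHB was called lower and PDHA1 was not called.

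Pyruvate dehydrogenase kinases switch the complex off. PDK2, the widely expressed kinase, went from 21.0, 22.0 and 24.4 to 10.8, 10.7 and 10.1 normalised CPM, 2.13-fold lower (adjusted p = 3.4e-08, edgeR). PDK3 went from 15.9, 17.0 and 16.5 to 7.91, 8.12 and 9.31, 1.95-fold lower. PDK1, the hypoxia-induced kinase, overlapped, at 22.4, 22.1 and 23.7 against 20.1, 22.0 and 22.2, with a 95% interval of -0.22 to 0.054. The log2 ratio of PDK1 to PDK2 moved by 1.13 ± 0.053, and PDK1 went from 28.2% ± 0.36 to 45.5% ± 1.07 of the family's TPM. PDK4, the kinase induced by fasting, had 3 counts over the vehicle libraries and 0 over the treated ones, was not tested, and gives no fold at this depth.

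PDP1, a phosphatase that switches the complex on, rose 1.29-fold, from 42.1, 40.1 and 44.4 to 57.1, 50.5 and 55.9 normalised CPM. PC, which carboxylates pyruvate to oxaloacetate, was at -0.55 ± 0.077 in the count test, from 18.6, 17.1 and 18.7 to 12.5, 12.0 and 12.6. Its TPM was 8.71 ± 1.297 and 8.64 ± 1.297, with a change of -0.011 that was not called. The gene LRFN4 lies on the opposite strand within this locus.

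**Figure D4:**
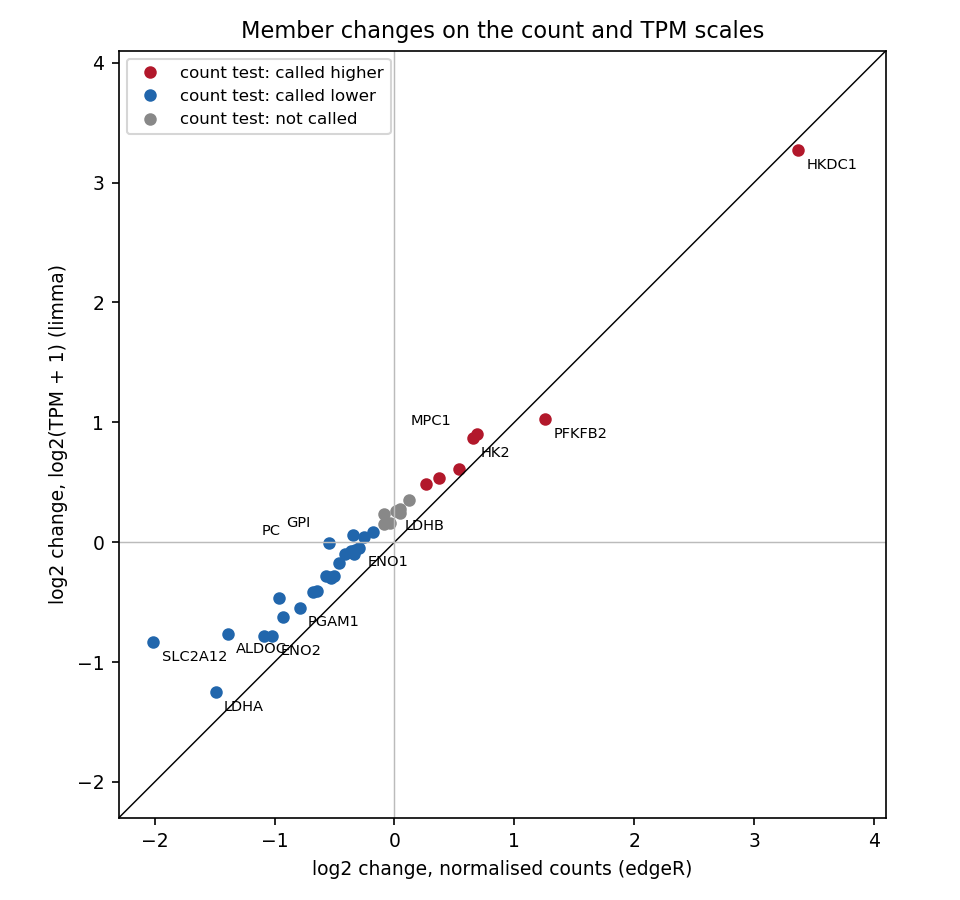
log2 change of each tested member on normalised counts (horizontal) and on log2(TPM + 1) (vertical), coloured by call in the count test, with the line of equality. Most points lie above the line, and GPI and PC are below 0 in the count test but near 0 in TPM.

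Summed over the members of a step, TPM also moved in both directions. Hexokinase mRNA was 146 ± 6.15 TPM in vehicle and 216 ± 12.9 in treated libraries, and that of the pyruvate carrier 51.7 ± 1.21 and 69.9 ± 6.57. Aldolase went from 1339 ± 30.2 to 1004 ± 51.4, LDH from 1084 ± 39.7 to 823 ± 50.2, and PDK from 24.5 ± 3.17 to 18.2 ± 1.47. In 15 of 19 steps the groups did not overlap in summed TPM, against 65.2% of all tested genes taken singly. Each of the 15 steps had an exact permutation p of 0.1 (two-sided, the smallest possible, and 0.127 after adjustment). The others were GPI, enolase, lactate transport and pyruvate carboxylase, with GPI and enolase at p = 0.3 in the same exact test.

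Connected pathways were read from 10 lists. Among all tested genes 31.9% were higher and 31.0% lower in the count test, and 43.8% and 14.8% on the TPM scale. The lists are short, and none was tested as a set. The list of hexosamine and polyol genes had 5 called higher and 2 lower of 8, with a median of 0.55 (5 and 1 on the TPM scale). GFPT1, the first enzyme of the hexosamine route, which draws fructose 6-phosphate out of glycolysis to make UDP-GlcNAc, rose from 137, 133 and 138 to 377, 367 and 402 normalised CPM, 2.81-fold, and UAP1, which forms UDP-GlcNAc, rose 2.21-fold. GFPT2, the other first enzyme, fell by 0.52 ± 0.053 on the log2 scale. Of 4 tested genes in the gluconeogenesis and fructose bisphosphatase list, 3 were higher and 0 lower (4 and 0 on the TPM scale). The 3 were PCK2, the mitochondrial PEP carboxykinase, at 0.91 ± 0.050, TIGAR, and G6PC3, named after its value was seen, at 0.54 ± 0.053.

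Among 11 glycogen genes 4 were higher and 5 lower, with the phosphorylase PYGB at 0.78 ± 0.061 and the synthase GYS1 at -0.84 ± 0.077. On the TPM scale the split was 5 and 1. The pentose phosphate list had 2 higher and 2 lower of 7 (3 and 1 on the TPM scale), with TKT, transketolase, at -0.38 ± 0.056. The tricarboxylic acid cycle list had 2 higher and 6 lower of 16, or 7 and 2 on the TPM scale, where all genes are at 43.8% and 14.8%, with IDH3A at 0.60 ± 0.055 and SDHA at -0.58 ± 0.050. Of 7 redox shuttle genes, 2 rose and 3 fell (3 and 0 on the TPM scale), and GOT1, the cytosolic aspartate aminotransferase, rose 2.40-fold. The remaining genes of the pyruvate dehydrogenase complex and its regulators included 1 higher and 1 lower among 5, or 3 and 0 on the TPM scale.

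Hypoxia-responsive genes outside glycolysis were lower in 8 and higher in 1 of 10 tested, with a median of -0.61 (5 and 1 on the TPM scale). NDRG1 and EGLN1, the HIF prolyl hydroxylase, were at -1.34 ± 0.068 and -0.74 ± 0.057, while VEGFA, an angiogenic factor, rose 2.78-fold, from 145, 153 and 137 to 405, 386 and 416 normalised CPM. Of 11 tested transcriptional regulators 5 were higher and 2 lower (7 and 1 on the TPM scale). EPAS1 (HIF-2-alpha) was at 0.64 ± 0.056 and TXNIP, a glucose-induced inhibitor of glucose uptake, at -0.94 ± 0.060. Outside the naming rule and chosen after their values were seen, HIF1A was at 0.24 ± 0.082 and MYC at 0.48 ± 0.059. Other isozymes and transporters were mostly silent, with 15 of 25 not tested, and 3 higher and 5 lower of the rest (4 and 5 on the TPM scale).

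**Figure D5:**
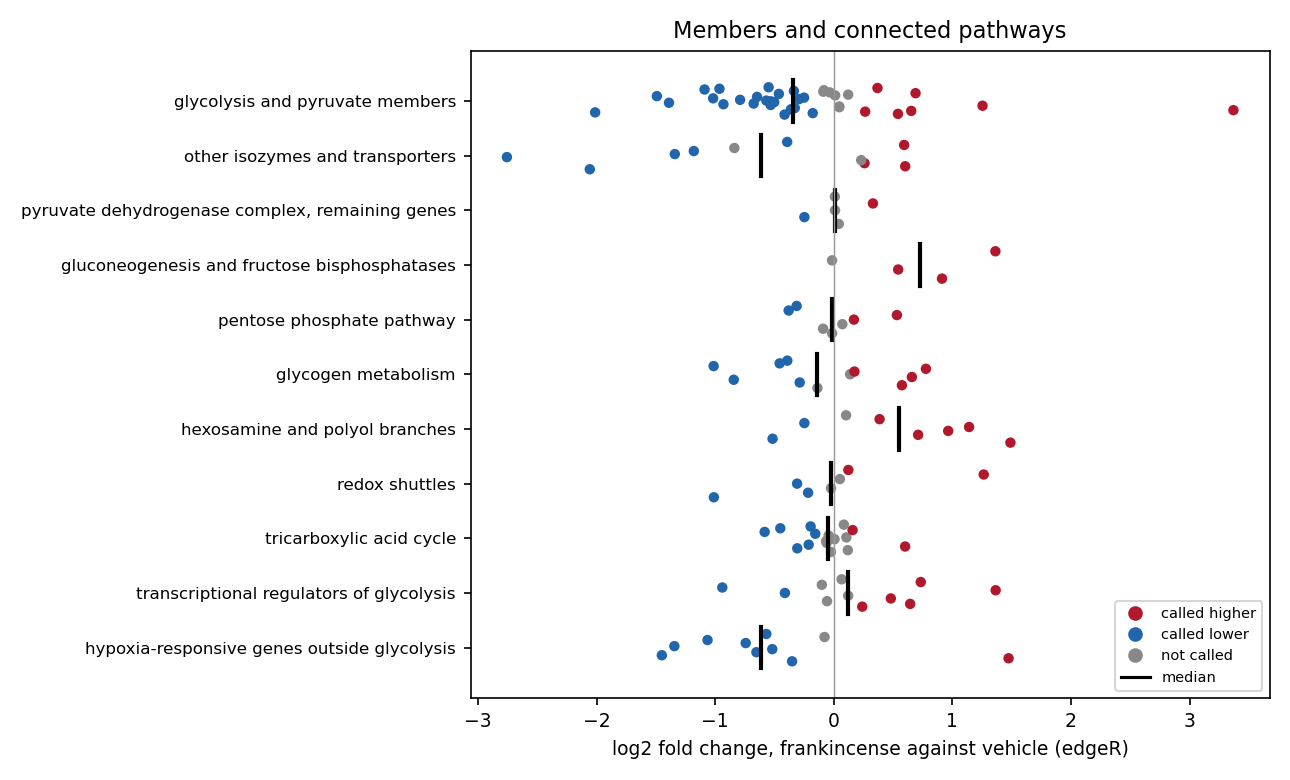
log2 fold change of each tested gene (points, coloured by edgeR call) and the median (bar) for the 38 tested members and 10 connected lists. The member median lies at -0.34, the hexosamine and polyol median at 0.55 and the hypoxia-responsive median at -0.61.

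The mean transcript length of a gene, weighted by abundance in each library, was a readout that the choice of members did not use. Among the 38 tested members, the vehicle and frankincense libraries did not overlap in this length for 7. That share is close to the 16.9% of all tested genes, so the count does not set the members apart. GPI had the largest shift of these: 2345, 2340 and 2364 bases in vehicle and 2080, 2185 and 2092 in treated libraries, a change of -9.81%. PDK3 changed by -5.19%, SLC2A1 by -4.96%, SLC16A3 by -2.84% and ENO1 by -0.27%, while PFKP changed by 2.82% and PDP1 by 2.40%. The lengths are RSEM estimates, and the transcripts behind them are not resolved in gene-level values.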

How the data were processed

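Messenger RNA was measured by sequencing in 6 libraries of 12Z cells. Per the submitters' processing notes, reads were processed with STAR and RSEM 1.3.1 on GRCh38; no source used here gives the STAR version, annotation or filters. The deposited expected counts are read numbers per gene as estimated by RSEM, per the file headers. The authors' TPM values are per length and scaled to one total per library, the deposited FPKM values were not used, and other deposited columns give each gene's abundance-weighted transcript length.

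After rounding, expected counts entered edgeR 4.0.16 under R 4.3.3 (low-count filter filterByExpr, TMM, robust quasi-likelihood fit, two-sided, Benjamini-Hochberg over 16719 genes, adjusted p under 0.05 called). An SE is the absolute log2 change divided by the square root of F, and 95% intervals are 1.96 SE either way. This normal quantile makes the intervals somewhat narrower than the F test implies with so few libraries. Normalised CPM uses TMM library sizes. TPM was tested with limma 3.58.1 at a pseudocount of 1. Isozyme ratios and step sums used exact permutation tests. The fit was tested on simulated data. Coordinates are from GENCODE 29 and promoters from RefSeq. All members were named, and per-library values went to those changed by at least 0.5 (log2) or in a compared family; other lists name up to 2 called genes per direction at 5 CPM or more, the smallest adjusted p first. Members and lists were chosen with earlier results of these data known. Alternatives were DESeq2 1.42.0, limma-voom, other scalings and filters, TPM with and without mitochondrial genes, other pseudocounts, a replicate block and leaving out each library. No 2 libraries were duplicates: the chi-square per degree of freedom between libraries of a group was 3.65 or more, and 11.2 and 12.9 for frankincense replicate 3 against the other treated libraries.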

Additional observations from a re-analysis of the deposited data

How the results depend on the processing

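All 7 members called higher kept their call and direction under every alternative, and between 15 and 24 called-lower members did. With limma on log2(TPM + 1), 12 members were higher and 15 lower, and there the changes of SLC2A6, GPI, ENO3, MPC2, PDHA1 and PDK1 turned to 0.087, 0.060, 0.043, 0.16, 0.15 and 0.23. PDK1 was also at 0.072 with TPM rescaled without mitochondrial genes, and MPC2 at 0.041 with library size scaling. LDHB turned to -0.018 with a filter of 5 CPM, and its range over leaving out each library was -0.022 to 0.044; that of MPC2 was -0.14 to 0.11. Of the ratios, ENO3 to ENO1 ranged from -0.033 to 0.21 in the same way, at a value of 0.090 with all libraries. Of the step sums, GPI, phosphofructokinase-1 and pyruvate dehydrogenase E1 turned from higher to lower, at -0.27, -0.027 and -0.11 with CPM in place of TPM and at -0.13, -0.053 and -0.089 with TPM rescaled without mitochondrial genes. Lactate transport ranged from -0.11 to 0.020 and pyruvate carboxylase from -0.12 to 0.11 over leaving out each library. The cause was not tested. DESeq2 and library size scaling each lost ENO3 and SLC2A6, leaving 22 lower. Leaving out each library gave 22 to 24 members lower, 7 higher, and 9377 to 11031 of all genes called, against 10509. No label says whether the replicate numbers shared by the groups pair the samples, and the main fit did not pair them. Deviations of same-numbered libraries correlated weakly, at 0.050, 0.10 and 0.035, but each library correlated best with its own number. With the replicate block, 7 members were higher and 24 lower and 10591 of all genes were called. Depth limits PDK4 and, less, ALDOC, SLC2A12, PFKFB2 and the vehicle level of HKDC1.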
